A study of Mus musculus with 6 samples.

Results

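The genes described here build the presynaptic side of the retinal ribbon synapse and the protein bridge across its cleft. They are Ctbp2, Bsn, Pclo, Rims1, Rims2, Unc13b and Stx3 of the ribbon and active zone, and Egflam, Dag1 and Dmd of the dystroglycan complex, chosen by symbol. All 10 were among the 15465 genes of the tables, and all 10 reached 1 RPKM in each pool, as 77.5% of all genes did, where RPKM is a read count divided by transcript length and library size. The material was retina of wild-type C57BL6/J mice, with no treatment and no age in the labels. It formed 1 group of 3 biological replicates, called pools 1, 2 and 3 below. Each pool joined RNA of 5 mice and had 2 technical replicates. There was 1 column of values per pool, listed under technical replicate 1, and whether it also holds technical replicate 2 was not tested. No comparison between conditions was possible, and the levels, their order and their spread between pools are given.

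Photoreceptors and bipolar cells release glutamate continuously from ribbon synapses. The ribbon is a plate made mostly of RIBEYE, a product of Ctbp2, and it tethers vesicles above an active zone where bassoon anchors it, RIM proteins gather calcium channels and vesicles, Munc13 proteins prime the vesicles and syntaxin 3 takes part in fusion. Across the cleft, pikachurin (Egflam) binds dystroglycan (Dag1), which spans the photoreceptor membrane and is held inside the terminal by dystrophin (Dmd), and this link is known for keeping bipolar cell tips in place in the photoreceptor synapse.

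Some of these genes have several starts, and a value per gene adds them up, so their sequences are shown before the values. In the GENCODE M21 annotation a Ctbp2 transcript of 3604 bases and 988 codons starts inside the gene, while a transcript of 2321 bases and 445 codons starts upstream. The long form is RIBEYE, whose own first domain precedes nearly all of the CtBP2 protein. For Dmd a transcript of 14910 bases has 3678 codons, and another starts far downstream, with 4438 bases and 617 codons. The short form is Dp71, which Muller glia make, and a form of intermediate size, Dp260, is known from photoreceptor terminals. The 250 bases before the RIBEYE start of Ctbp2 (chr7:133015248-133015497, minus strand) and before the starts of the long (chrX:82948620-82948869, plus strand) and short (chrX:85048045-85048294, plus strand) forms of Dmd are given 5′ to 3′ from RefSeq, build GRCm38.p6. A stretch of 30 bases just after the RefSeq start of Stx3 (chr19:11819356-11819385, minus strand) is added because it holds the same motif as the Ctbp2 start. The coding transcripts of Stx3 in GENCODE M21 all start downstream of this stretch, the nearest at base 11818942. Capitals mark that motif, TAATCC or its other strand GGATTA, the core bound by the photoreceptor factor Crx.
Ctbp2, RIBEYE start: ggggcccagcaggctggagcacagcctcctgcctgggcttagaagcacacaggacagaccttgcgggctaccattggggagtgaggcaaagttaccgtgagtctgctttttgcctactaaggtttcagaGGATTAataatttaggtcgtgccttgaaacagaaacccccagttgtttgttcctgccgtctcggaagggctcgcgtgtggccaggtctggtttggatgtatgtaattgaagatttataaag
Stx3, after the RefSeq start: ccactagcatcaTAATCCccaaattcctcg
Dmd, long form start: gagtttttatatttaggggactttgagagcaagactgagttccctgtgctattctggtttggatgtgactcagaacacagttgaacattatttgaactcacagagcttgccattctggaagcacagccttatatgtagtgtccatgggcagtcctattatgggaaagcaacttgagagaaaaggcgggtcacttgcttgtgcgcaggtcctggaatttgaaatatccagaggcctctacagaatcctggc
Dmd, short form start: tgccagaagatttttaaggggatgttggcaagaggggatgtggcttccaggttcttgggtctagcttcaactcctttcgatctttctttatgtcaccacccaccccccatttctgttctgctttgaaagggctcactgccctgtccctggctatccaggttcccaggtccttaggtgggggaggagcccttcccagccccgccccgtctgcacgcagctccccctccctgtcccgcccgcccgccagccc
RefSeq windows of 300 bases (250 before to 50 after a start) were held for 9 members, in 13 windows, and Rims2 had no entry. The motif, searched as TAATCC and GGATTA so that both strands are read, stood in 2 of the 13 windows, against 7.06% of all 32851 windows. In Ctbp2 it began at base -121 relative to the RIBEYE start, and in Stx3 at base 31 after the RefSeq start. A match is a string of letters and shows no binding.

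The members spanned a 20.5-fold range of level per transcript length. Their median was 22.4, 21.5 and 21.9 RPKM in pools 1, 2 and 3, or 21.9 ± 0.430 RPKM (SD, n = 3), beside a median of 6.09 ± 0.396 RPKM over all genes. In the order of mean RPKM, Stx3 was followed by Ctbp2, Egflam, Unc13b, Rims2, Dag1, Bsn, Dmd, Rims1 and Pclo. Of the 9 pairs of neighbours in this order, 5 had ranges over the pools that did not overlap. Egflam overlapped with Unc13b, and each of Bsn, Dmd and Rims1 overlapped with the gene after it. Within pools Bsn was nevertheless above Dmd in 3 of 3, with a log2 ratio of 0.44 ± 0.24, whereas Dmd was above Rims1, Rims1 above Pclo and Egflam above Unc13b in 2 of 3 pools each.

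**Figure D1:**
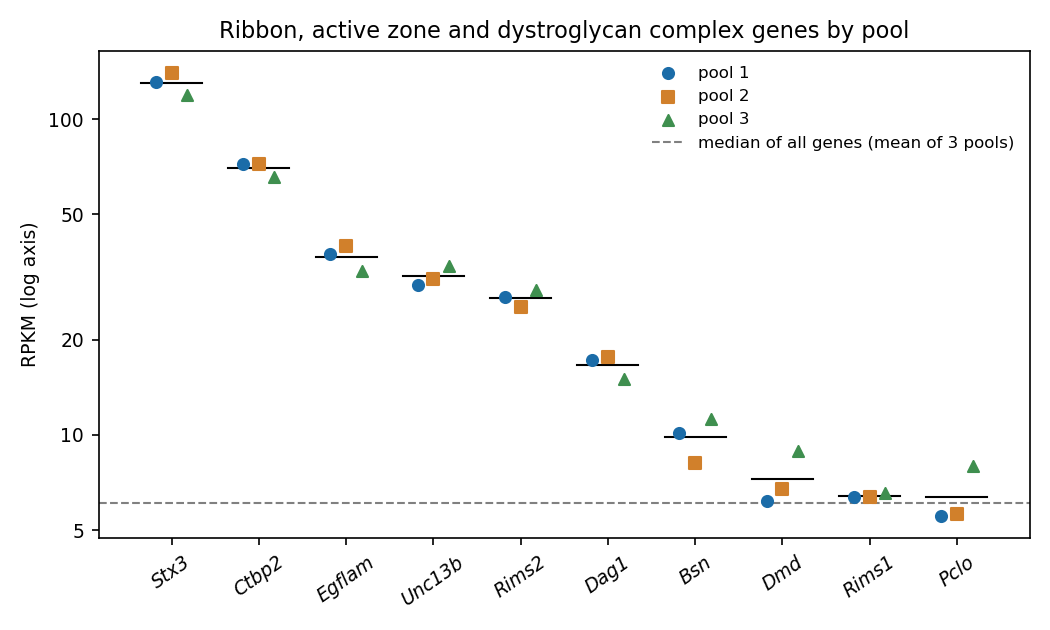
RPKM (log axis) of the 10 genes in each of the 3 pools, with a line at the mean of each gene. Stx3 is highest at 120 to 140 RPKM, Dmd and Pclo have their highest point in pool 3, and the dashed line is the median of all genes (6.09 RPKM).

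The fusion protein led. Stx3, the plasma membrane SNARE of ribbon synapses, had 131, 140 and 120 RPKM in pools 1, 2 and 3. This is 130 ± 10.3 RPKM (SD, n = 3), rank 236 of all genes by mean. Ctbp2, which encodes both RIBEYE and the corepressor CtBP2, had 72.4, 72.1 and 65.8 RPKM (70.1 ± 3.75). All 3 values of Stx3 lay above all 3 of Ctbp2, with a ratio of 1.86. How much of the Ctbp2 level is RIBEYE cannot be read from a value per gene.

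The priming and docking genes stood lower. Unc13b, which encodes Munc13-2, had 29.96, 31.3 and 34.2 RPKM (31.8 ± 2.16). Rims2, which encodes RIM2, had 27.5, 25.4 and 28.7 RPKM (27.2 ± 1.66). The ranges of these genes did not overlap, although the ratio of Unc13b to Rims2 was only 1.17. Rims1, which encodes RIM1, had 6.36, 6.37 and 6.54 RPKM (6.42 ± 0.101), the narrowest spread of the members relative to its level as deposited.

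The large scaffolds were near the bottom per transcript length. Bsn, which encodes bassoon, had 10.2, 8.15 and 11.3 RPKM (9.85 ± 1.57). Pclo, which encodes piccolo, had 5.54, 5.6 and 7.96 RPKM (6.37 ± 1.38). Both were highest in pool 3, and Bsn was higher than Pclo in 3 of 3 pools, with ranges that did not overlap and a ratio of 1.56. RPKM divides by transcript length, and these are the longest members, with median transcript lengths of 15938 and 18465 bases. Multiplied back by the annotated median length in kb, Bsn came to 157 and Pclo to 118, between Stx3 at 317 and Rims1 at 39.7. The product is proportional to reads only if the authors divided by the same length, which is unknown. On this scale Bsn took place 5 and Pclo place 7 of the 10 members, and Dmd was last at 32.2. The place of Dmd rests on the 4438 bases taken for it, while its longest coding transcript has 14910.

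In the cleft complex, Egflam exceeded Dag1. Egflam, the secreted ligand, had 37.4, 39.6 and 33.1 RPKM (36.7 ± 3.30), and Dag1, its receptor, had 17.3, 17.6 and 15.0 RPKM (16.7 ± 1.42). Both were lowest in pool 3 as deposited, but after scaling Dag1 lay -0.04 from its mean on the log2 scale in pools 2 and 3 alike. Their ratio was 2.16, 2.25 and 2.20 in pools 1, 2 and 3. Its SD was 0.03 on the log2 scale around 1.14, the smallest among the 9 gene pairs for which a ratio was taken. The median transcript lengths of Egflam and Dag1 are close, at 4584.5 and 4389.5 bases, and the part of this in the small SD was not tested. Dmd had 6.16, 6.76 and 8.87 RPKM (7.26 ± 1.42), highest in pool 3. With a whole retina, fewer cells of a type and less RNA per cell cannot be told apart in any of these values, and Dag1 and Dmd are also made by Muller glia.

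Members were next set beside the other genes of their families, as ratios within a pool, for which scaling between pools cancels. For the 9 pairs described below and above, the gene named first was higher in 3 of 3 pools in 8. Which gene is named first was a choice, and in Bsn to Pclo, Rims2 to Rims1 and Egflam to Dag1 both are members. The count is therefore no comparison of members with their relatives. An exact sign-flip test over 3 pools cannot give a p under 0.25. Among the plasma membrane syntaxins, Stx1a had 7.29, 8.39 and 6.23 RPKM, Stx2 4.65, 5.37 and 4.65, and Stx4a 26.7, 30.6 and 23.3, all below the 120 to 140 RPKM of Stx3. Stx1a encodes a syntaxin of conventional synapses, which amacrine cells form in the retina. Stx3 exceeded Stx1a 17.96-fold, with an SD of 0.10 on the log2 scale. That ratio compares this pair of genes only, and not ribbon synapses with conventional ones.

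In the RIM family Rims2 held 48.5% ± 6.97 of the summed RPKM and Rims1 11.5% ± 2.25. Rims2 exceeded Rims1 4.23-fold, and the ratio was 4.32, 3.99 and 4.39 in pools 1, 2 and 3. It exceeded Rims3 1.57-fold (0.65 ± 0.61 on the log2 scale), and multiplied by transcript length this log2 ratio was 2.92. That value rests on the length taken for Rims3, 977 bases, its shortest coding transcript, while its longest has 6505 bases. Rims3 and Rims4, which encode short RIM proteins without the domain that binds Rab3, had 24.1, 10.1 and 21.5 RPKM and 6.0, 3.26 and 5.30 RPKM. Both were lowest in pool 2. In the Munc13 family Unc13b took 50.7% ± 1.69 and Unc13a, which encodes the Munc13-1 of conventional synapses, took 38.5% ± 2.31, with 25.04, 23.7 and 23.7 RPKM. Unc13c had 4.64, 5.16 and 5.76 RPKM and Unc13d 1.51, 1.69 and 1.60 RPKM. Unc13b exceeded Unc13a 1.32-fold in RPKM (0.40 ± 0.13 on the log2 scale), and this turned to -0.63 once multiplied by transcript length. The change of sign rests on the length taken for Unc13b, 5037 bases, while its coding transcripts run from 569 to 14754 bases.

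Of the genes named first in the pairs, only Ctbp2 was below the other gene in every pool. Ctbp1, the corepressor paralog without a ribbon form, had 100, 103 and 72.1 RPKM, and the log2 ratio of Ctbp2 to Ctbp1 was -0.37 ± 0.21. Multiplied by transcript length the ratio was 0.0089, which is less than its SD. Dmd exceeded its paralog Utrn 1.76-fold (0.82 ± 0.18 on the log2 scale), and this turned to -0.66 once multiplied by length. Utrn had 3.85, 4.0 and 4.38 RPKM, and Drp2, the third dystrophin gene, had 1.54, 1.71 and 1.74. The Dmd ratio rests on the length taken for a gene whose transcripts run from 1858 to 14910 bases, and the length the authors divided by is not given in the sources used here. Egflam exceeded Agrn 1.88-fold (0.91 ± 0.19 on the log2 scale, and 0.32 once multiplied by length). Agrn, which encodes agrin and shares the laminin G domains that bind dystroglycan, had 19.4, 18.7 and 20.4 RPKM, and Hspg2, which encodes perlecan, had 1.47, 1.27 and 1.01.

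**Figure D2:**
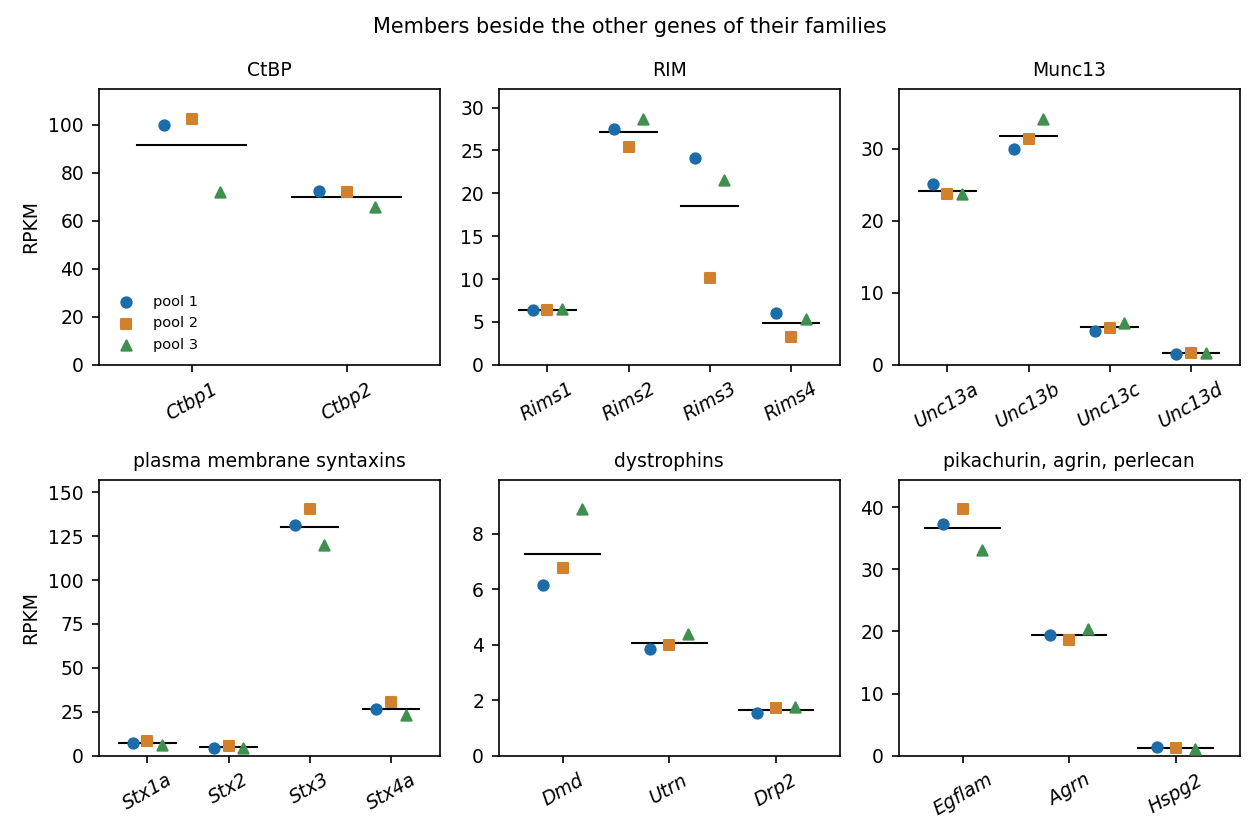
RPKM (linear axes from 0) of members and the other genes of 6 families in the 3 pools, with a line at each mean. Stx3 stands above the other syntaxins shown, Rims2 above Rims1, and Rims3 and Rims4 have their lowest point in pool 2.

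The spread between pools was tested with limma, which set the variance of each gene on the log2(RPKM + 0.1) scale, after scaling of the pools, against the variance of genes of its level. Among the 12562 genes whose mean reached 1 RPKM, 679 varied (Benjamini-Hochberg adjusted p under 0.05), which is a background of 5.41% called. Of the 10 members, 0 were called. At an unadjusted p under 0.05 there was 1 member (Pclo), against 1045 of all genes (8.32%). The non-robust prior called 0 of all genes, with 704 at an unadjusted p under 0.05 and 0 members among them. Of the 679 genes, 623 had a symbol that begins with another whole symbol followed by a digit, or were such a shorter symbol. Such genes are called digit-extended here, and 2088 of the genes tested were of this kind. None of the 10 members has such a symbol. Without these genes 98 of 10474 were called, a background of 0.936%, and again 0 members. In that fit 3 of the 10 members (Bsn, Pclo and Dmd) had an unadjusted p under 0.05, against 642 of the 10474 genes (6.13%).

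The members differed in spread. The SD between pools on the log2 scale was 0.03 for Stx3, 0.05 for Egflam, 0.07 for Dag1 and 0.08 for Ctbp2, below the SD of 0.16 to 0.17 that the model gives for genes of their level. It was 0.13 for Rims1, 0.19 for Unc13b and 0.21 for Rims2. It was 0.35 for Bsn (adjusted p = 0.621, limma), 0.39 for Pclo (adjusted p = 0.558) and 0.35 for Dmd (adjusted p = 0.686). The median over members was 0.16 and that over all genes tested 0.15.

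The members of high spread had their highest value in pool 3, and so did long genes in general. After scaling, pool 3 minus the mean of pools 1 and 2 was 0.66 on the log2 scale for Pclo, 0.61 for Dmd and 0.46 for Bsn. It was 0.31 for Unc13b, 0.27 for Rims2 and 0.19 for Rims1. It was between -0.06 and 0.02 for Ctbp2, Stx3, Egflam and Dag1. Over all genes tested without the symbols just described, the median of this difference was -0.13 for transcripts of 1 to 2 kb (2267 genes), 0.10 for 4 to 6 kb (1990 genes), 0.34 for 8 to 12 kb (346 genes) and 0.51 for over 12 kb (90 genes). Across 10326 genes, which share the 3 libraries, Spearman's rho of length with this difference was 0.50, and across the 10 members it was 0.66.

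With the trend of each pool on length removed, the difference was 0.09 for Pclo, -0.06 for Bsn and 0.53 for Dmd. The annotated median length of Dmd transcripts is 4438 bases, so that removal took little from it, while its longest transcript has 14910 bases. None of the 10 members was called in that fit either (563 of 12395 genes called, a background of 4.54%, limma), and 0 had an unadjusted p under 0.05. What caused the trend was not tested. The summed level of the 9 Muller glia markers was 2172, 2275 and 1625 RPKM in pools 1, 2 and 3, lowest in pool 3 where Dmd was highest. The markers did not all follow the sum. Glul was lowest in pool 2 (398, 255 and 335 RPKM) and Aqp4 highest in pool 3 (12.2, 12.7 and 13.1). The other markers of the list were lowest in pool 3 as deposited. The part of Muller glia in the Dmd values was not tested.

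**Figure D3:**
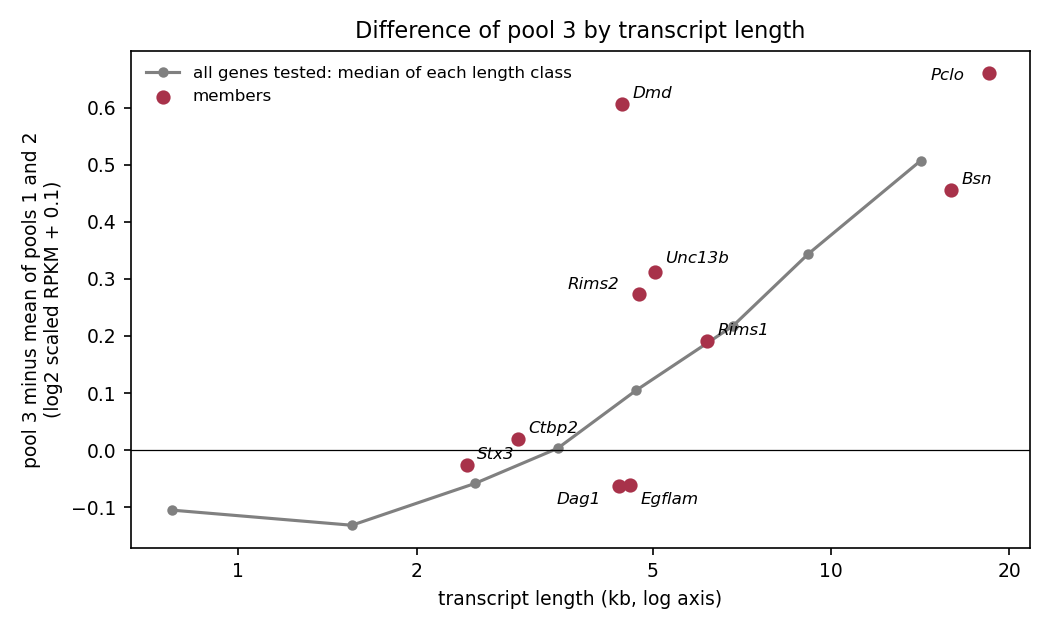
Difference of pool 3 from the mean of pools 1 and 2 (log2 scaled RPKM + 0.1) against median transcript length (kb, log axis), for the 10 members and as medians of length classes over the genes tested. Bsn and Pclo lie near the class medians for long genes, and Dmd lies 0.61 above 0 at a length of 4438 bases.

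Related presynaptic genes fixed as lists ranged widely. The 4 genes of the Cav1.4 calcium channel complex, which admits the calcium that drives release at photoreceptor ribbons, had a median of 76.7 ± 2.93 RPKM. Cabp4, the calmodulin-like regulator, had 118, 126 and 96.0 RPKM. Cacna2d4, the alpha2delta subunit, had 74.4, 79.3 and 78.3, Cacna1f, the pore, had 72.1, 77.9 and 77.8, and Cacnb2, the beta subunit, was lowest with 27.3, 28.7 and 27.6. Of these genes 0 of 4 were called as varying. The 9 SNARE partners had a median of 157 ± 13.8 RPKM, led by Snap25 (374, 456 and 382), Vamp2 (354, 358 and 287) and Cplx4 (198, 262 and 207), with Vamp1 lowest (33.8, 38.8 and 30.4) and 0 of 9 called.

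Among 18 other active zone genes, all at 1 RPKM or more in every pool, the median was 12.9 ± 1.01 RPKM. Unc119, a carrier of lipid-modified proteins that also binds RIBEYE, had 1819, 2130 and 1510 RPKM, and Rab3a, the vesicle protein that RIMs bind, had 258, 287 and 189. The third was Ctbp1, described above. Erc1, a scaffold of the active zone, was lowest with 3.04, 2.84 and 3.04 RPKM. Of the 18 genes 1 was called as varying, Rims3 (adjusted p = 0.0185, limma), and without digit-extended symbols also Rims4 (adjusted p = 0.0302). In that second fit Rims3 had an adjusted p of 1.12e-05 (limma). On the log2 scale Rims3 and Rims4 lay 0.49 and 0.37 above their mean in pool 1 and stood at -0.90 and -0.64 from it in pool 2. The call of Rims3 did not hold with the non-robust prior (adjusted p = 0.561), without a filter on low values (adjusted p = 0.083) or with a pool left out (0.0731 to 0.992).

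The 6 genes listed as partners at the ON bipolar cell tips had a median of 29.4 ± 1.28 RPKM, and 0 of 6 were called. Grm6, the glutamate receptor there, had 49.97, 50.8 and 41.2 RPKM. Elfn1, an adhesion protein of the photoreceptor terminal that binds that receptor, had 50.8, 47.7 and 43.4, and Trpm1, the channel, had 40.4, 39.2 and 34.5. Nyx, which encodes nyctalopin, was lowest with 6.98, 5.67 and 6.58. Gpr179, a receptor to which pikachurin binds, had 14.9, 12.03 and 14.3 RPKM, below the 33.1 to 39.6 of Egflam in every pool.

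The dystrophin-associated genes were lower. Of 18 such genes 14 had at least 1 RPKM in every pool, and the median was 4.29 ± 0.211 RPKM, below that of all genes. Over those 14 genes alone it was 7.77 RPKM. Dtnb, which encodes beta-dystrobrevin, had 20.6, 19.9 and 18.3 RPKM, and Sntb2, a syntrophin, had 14.4, 11.6 and 17.9. The sarcoglycans, which join dystroglycan in muscle, fell into separate levels. Sgcb had 9.45, 10.9 and 9.15 RPKM and Sgce 6.72, 8.55 and 6.95, whereas Sgca, a muscle-specific subunit, had 0.06, 0.11 and 0.04 and Sgcd 0.11, 0.15 and 0.11. The summed level of 10 skeletal muscle markers was 10.6, 34.4 and 7.06 RPKM in pools 1, 2 and 3, highest in pool 2 and lowest in pool 3 as for Sgca, and its part in these low values was not tested. Of the 14 genes tested 0 were called as varying.

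Matrix ligands of dystroglycan other than pikachurin were mostly low. Of 16 genes 9 reached 1 RPKM in each pool, the median was 1.95 ± 0.215 RPKM (4.03 RPKM over these 9), and 0 of 9 tested were called. Nrxn2, a neurexin, led with 28.8, 25.1 and 24.5 RPKM, then Agrn, given above, and Nrxn3 (11.1, 10.5 and 12.3). Egflam was above every one of these 16 genes in each pool.

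Enzymes that build the sugar chain by which dystroglycan binds its ligands were present throughout. Of 16 genes 15 reached 1 RPKM in each pool, with a median of 12.5 ± 0.446 RPKM, near the 16.7 RPKM of Dag1. Dpm2, a subunit of the mannose donor synthase, had 36.6, 46.4 and 31.01 RPKM. A row under B3gnt1, an older symbol of B4gat1 that B3gnt2 has also carried, had 35.5, 41.3 and 29.1. Pomgnt1, which extends the O-mannose, had 36.7, 39.3 and 29.5. The lowest was Ispd, which makes the ribitol donor, with 3.26, 3.53 and 3.17. Tmem5, which adds a xylose, was the 1 gene called as varying (adjusted p = 3.43e-05, limma), with 0.05, 0 and 16.3 RPKM. Its symbol is digit-extended, and without pool 3 it was not called (adjusted p = 0.996). Sgcz and Pomk were not analysed here.

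**Figure D4:**
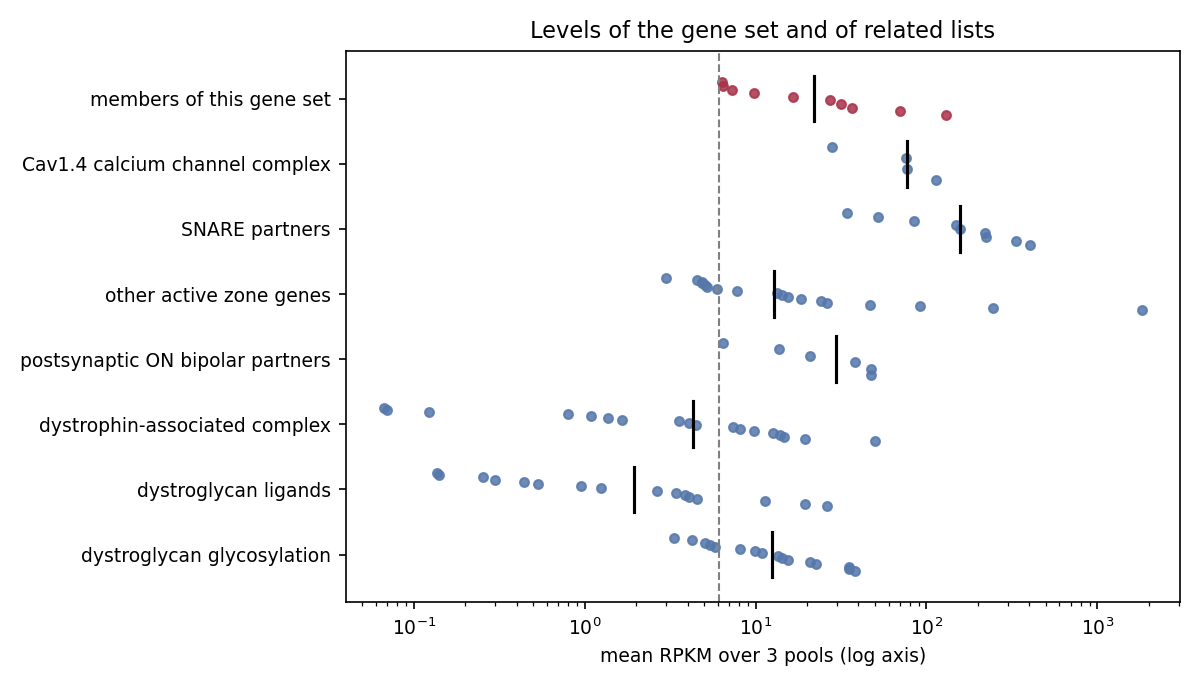
Mean RPKM over 3 pools (log axis) of each gene in the set and in 7 related lists, with a bar at the median of each list and a dashed line at the median of all genes (6.09 RPKM). The members lie between 6.37 and 130 RPKM, and the lists of dystrophin-associated genes and dystroglycan ligands have medians below the dashed line.

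The tissue label was set against markers. The 10 rod markers had medians of 667 to 783 RPKM over the pools, 9 cone markers 59.1 to 90.5 and 10 bipolar markers 33.9 to 36.6, and none of them was at 0. Markers of neighbouring tissue were also measured and differed between pools, with summed levels of 4538, 3464 and 4163 RPKM for 9 lens genes and 475, 454 and 261 for 8 pigment epithelium genes. In these lists 4 and 3 genes were called as varying, and no member was.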

How the data were processed

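RNA sequencing of wild-type mouse retina was analysed from 3 tables of 15468 rows (3 repeated symbols, with identical values, kept once). The deposited values were taken as RPKM, inferred from their form since neither headers nor labels state a unit, and they may equally be FPKM. GSNAP, HTSeq and mm9 are named per the submitters' processing notes, with versions not given in the sources used here. The read depth is unknown, so no interval or detection floor is given. Replicates follow the titles. The source names number the samples differently, and if those are right the pools are not independent.

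Levels are as deposited, with the SD over 3 pools. For the variance test, pools were divided by trimmed means of log ratios (factors 0.984, 1.09 and 0.931), genes had to reach a mean of 1 RPKM, the pseudocount was 0.1, and limma 3.58.1 (R 4.3.3, statmod 1.5.0) with a robust trended prior gave an F test per gene, adjusted by Benjamini-Hochberg and called under 0.05. The F test was also run on simulated data whose spread was drawn from its own fitted prior. Such data cannot show how the test behaves where real spreads depart from that prior. Transcript lengths (98.5% of genes) are medians over GENCODE M21 transcripts linked to RefSeq, of a later build than mm9. Named are all members, all genes of their families and, of each related list, the 3 highest, the lowest and those called, except some genes that are not reported here. Gpr179, Sgca, Sgcb, Sgcd and Sgce were named after their values were seen. Members and lists were chosen with earlier results of these data known.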

Additional observations from a re-analysis of the deposited data

How the results depend on the processing

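No paired analysis was possible because there is 1 group. In all 10 alternatives (non-robust prior, other filters and pseudocount, no scaling, no digit-extended symbols, length trend removed, a pool left out) 0 of the 10 members were called, with a lowest adjusted p (limma) between 0.363 and 0.988. The number of all genes called was 679 and became 0 with the non-robust prior, 98 without digit-extended symbols, 304 without replicate 2, 415 without replicate 3 and at most 466 with a replicate left out; the cause was not tested. The median level of the members was 20.6 RPKM as a geometric mean (21.9 as a median). With a replicate left out, the neighbours in level that did not overlap numbered 5 to 8, with 8 without replicate 3, where fewer values make an overlap less likely. Multiplying by transcript length changed the sign of 3 of 9 ratios on the log2 scale. These were Ctbp2 to Ctbp1 (0.0089, less than its SD of 0.21 and so no clear reversal), Unc13b to Unc13a (-0.63) and Dmd to Utrn (-0.66). Multiplying by length moved the other 6 by more than their SD with no change of sign. These changes rest on the annotated median length taken for each gene. A pseudocount of 1 moved 3 ratios by more than their SD. Leaving out a replicate moved 0, which was fixed in advance and shows nothing about the ratios. Dropping 1 of 3 values cannot shift their mean by more than their SD. Without replicate 3, an alternative chosen after seeing the data, the log2 ratios to Stx3 went from -3.74 to -3.90 for Bsn, -4.38 to -4.61 for Pclo and -4.18 to -4.39 for Dmd. The medians of the lists of dystrophin-associated genes and dystroglycan ligands were 7.77 and 4.03 RPKM over genes past the filter (4.29 and 1.95 over all their genes). Depth, which is unknown, limits what can be said of values near 0.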
